A study of Mus musculus with 8 samples.

Results

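Heat shock proteins and their DnaJ cochaperones were followed in liver RNA of alcohol fed mice and of mice pair-fed the control diet. The rule took the DNAJA, DNAJB and DNAJC families without *Dnajb9*, *Dnajb11* and *Dnajc3*, and with them *Hspa1a*, *Hspa1b*, *Hspa2*, *Hspa4*, *Hspa4l*, *Hspa8*, *Hspa9*, *Hsph1*, *Hsp90aa1*, *Hsp90ab1*, *Hspb1*, *Hspb8*, *Hspd1*, *Hspe1*, *Hsf1*, *Hsf2*, *Bag3* and *Stip1*. Where several probe-sets carried 1 gene, the one of highest mean stood for it. RefSeq names 60 protein-coding genes under this rule, and 47 of them had a probe-set of their own on the array, of 14860 genes with one in the whole series. At the filter on low signal used below, 33 of the 47 were kept and are called measured here. The rule also takes chaperones that do not work in the cytosol, such as *Hspa9* in the mitochondrion and *Dnajc10* in the endoplasmic reticulum (ER), so the set is wider than cytosolic heat shock proteins.

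The mice were male C57Bl6J, 6 weeks old when the diets began, and wild type at *Dnmt1* (*Dnmt1*+/+) in the study's methods. The alcohol group (mice WA-811, WA-817, WA-833 and WA-836) received a Lieber-DeCarli liquid diet whose alcohol content was raised in steps of 2.06% for 3 days, 4.18% for 4 days and 6.2% for 5 weeks by the labels (the methods give a slightly higher last step), when alcohol gave 35% of the calories. The control group (mice WC-820, WC-824, WC-834 and WC-840) was pair-fed for the same 6 weeks, with maltose and dextrin supplying those calories. RNA of whole liver was read on 1 Affymetrix Mouse Exon 1.0 ST array for each mouse, and every value below is a log2 value of 1 probe-set made by RMA, a method that corrects background, normalizes the arrays and summarizes the probes. Such values can be compared between mice for 1 gene, not between genes. The values of a group are given in the order of its mice above.

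Heat shock proteins are chaperones that keep other proteins folded. HSP70 binds exposed stretches of a client protein in an ATP-driven cycle: a DnaJ protein (HSP40) delivers the client and triggers ATP hydrolysis through its J domain, and a nucleotide exchange factor, such as the HSP110 proteins or BAG3, lets the client go. STIP1 (HOP) passes clients on from HSP70 to HSP90. When unfolded proteins gather, heat shock factor 1 (HSF1) leaves its chaperone partners, forms trimers and binds heat shock elements, inverted repeats of the short unit GAA, before heat shock genes. In liver, acetaldehyde and lipid peroxidation products formed during alcohol metabolism are known to modify proteins.

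Stretches with a heat shock element by genes that changed between the diets are shown first, since HSF1 binds elements of this kind. The element was searched as 2 units, GAANNTTC or TTCNNGAA (each reads the same on both strands), and as 3 units, GAANNTTCNNGAA or TTCNNGAANNTTC, in the RefSeq promoter windows of 250 bases before to 50 after each start (GRCm38.p6). The 3-unit match contains the 2-unit ones. Capitals mark the matched element.
Hsph1, before the start: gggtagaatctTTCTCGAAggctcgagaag
Hsph1, after the start: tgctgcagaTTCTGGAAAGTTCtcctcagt
Dnajb4: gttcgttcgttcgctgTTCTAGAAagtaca
Dnajc10: aacaattttatTTCTAGAAaactttaatta
Dnaja1: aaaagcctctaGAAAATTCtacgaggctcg
Bag3: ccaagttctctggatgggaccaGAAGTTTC
Hspb8: agaagccaggaGAAGTTTCtaggctcgcga

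The *Hsph1* stretches lie at chr5:149636351-149636380 and chr5:149636280-149636309 on the minus strand, by 2 annotated starts, and the second holds the 3-unit match. With the start base as 1 and the base before it as -1, the first stretch covers bases -44 to -15 of one start and the second bases 7 to 36 of the other. The *Dnajb4* stretch (chr3:152193846-152193875, minus strand, bases -30 to -1) stands before 1 of its 2 starts, that of *Dnajc10* lies at chr2:80315273-80315302 (plus strand, bases -193 to -164), and that of *Dnaja1* lies at chr4:40722333-40722362 (plus strand, bases -135 to -106) before 1 of its 3 starts. *Bag3* (chr7:128523603-128523632, plus strand, bases 21 to 50) and *Hspb8* (chr5:116422844-116422873, minus strand, bases -9 to 21) are shown because they were the measured genes of the set with an element that did not pass the test. A match describes the letters only.

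A 2-unit element was held by 15.1% of all 32851 promoter windows and by a window of 17.0% of all 27025 genes. GAANNTTC alone was in 7.86% and TTCNNGAA alone in 8.52% of the windows. Of the genes that the rule names, 47 were in the promoter table, whether or not they were measured, and 15 of them (31.9%) had an element. The 3-unit element stood in 0.603% of all windows and by 0.662% of all genes, against 4 of those 47 (8.51%), which were *Hsph1*, *Dnajb6* and the mitochondrial chaperonin genes *Hspd1* and *Hspe1*. Of these 4 genes *Hsph1* was the one measured. A window of *Hspd1* and that of *Hspe1* overlap on opposite strands, so the same bases were counted for both genes, here and in the 2-unit count. An element was found by 3 of the 5 genes that rose and were in the table (*Hsph1*, *Dnajb4* and *Dnajc10*, not *Stip1* and *Dnajc14*), by *Dnaja1*, which fell, and by 2 of the 19 that did not pass the test. The other 9 genes with an element were among 22 that were not measured. These few genes were not tested against each other, and a link between element and change was not tested.

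The 2 diets were compared with limma, which fits a linear model and moderates its variance, over the 10430 probe-sets of highest fourth-highest value. The words rose, fell and changed are kept for genes with a Benjamini-Hochberg adjusted p under 0.05. Of the 33 measured genes 7 rose and 1 fell on the alcohol diet. The genes that rose were *Dnajc12*, *Hsph1*, *Dnajc18*, *Dnajc10*, *Stip1*, *Dnajb4* and *Dnajc14*, and the gene that fell was *Dnaja1*. Among all probe-sets tested 10.2% were higher and 5.98% were lower, against 21.2% and 3.03% of these genes. The median difference, alcohol minus control, was 0.06 over the 33 genes and 0.05 over all probe-sets. The 25 genes that did not pass the test lay between -0.26 and 0.20. Of the 10430 probe-sets, 1.01% were higher and 0.757% were lower at the study's thresholds (P of 0.0001, 1.5-fold), and *Dnajc12* was the one measured gene of the set past them.

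**Figure D1:**
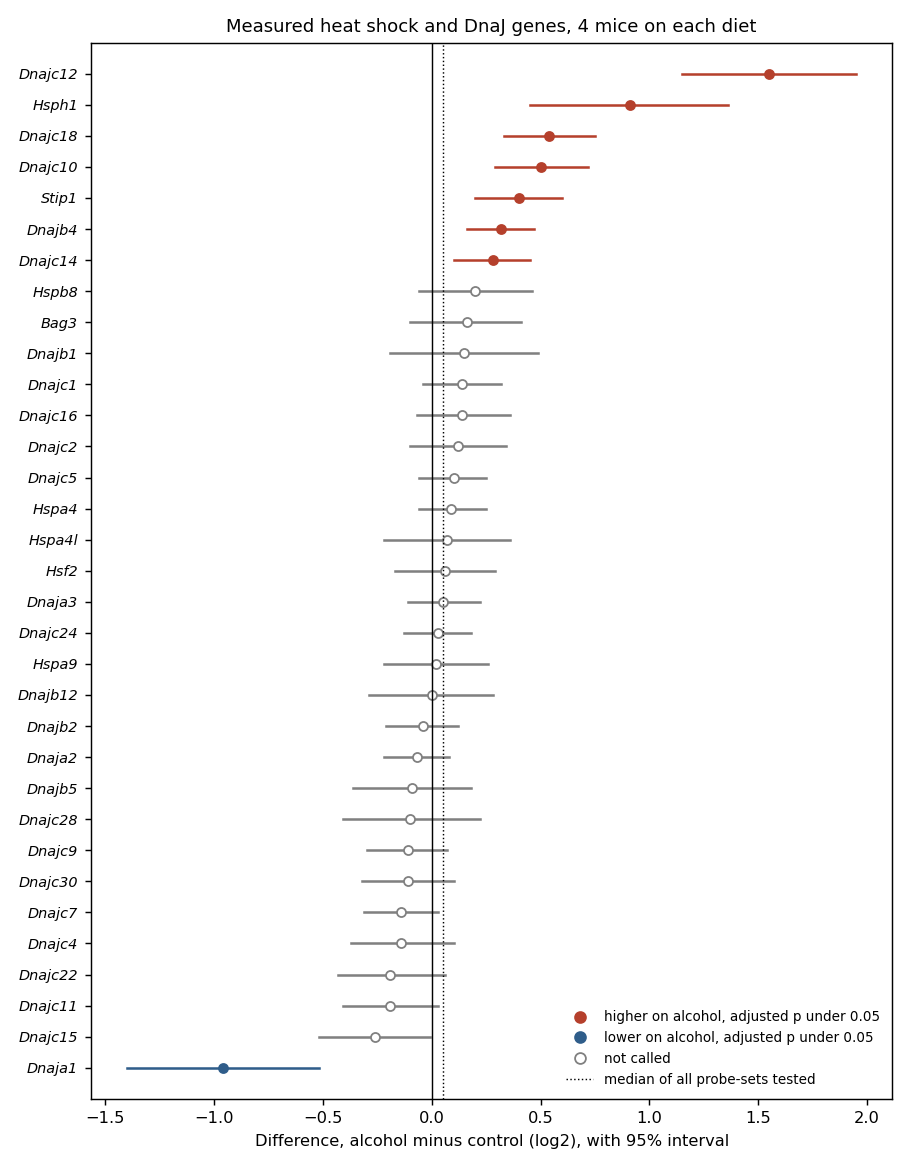
Difference in log2 value, alcohol minus control, of the 33 measured genes (points) with its 95% interval from limma (lines), in order of size. The 7 red points, from 0.28 for Dnajc14 to 1.55 for Dnajc12, were called higher and 1 blue point, Dnaja1 at -0.96, lower, while the open points lie between -0.26 and 0.20 around the dotted median of all probe-sets, 0.05.

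By family, among 25 measured DnaJ genes 5 rose and 1 fell, with a median difference of -0.00. Class C, which has a J domain but neither the zinc finger of class A nor the glycine-rich build of class B, held 17 of them, of which 4 rose (*Dnajc12*, *Dnajc18*, *Dnajc10* and *Dnajc14*) and 0 fell by limma (1, *Dnajc15*, at an unadjusted p under 0.05), against 1 of 5 in class B that rose (*Dnajb4*) and 1 of 3 in class A that fell (*Dnaja1*). The 8 measured genes that are no DnaJ genes had a median difference of 0.12 and a range of 0.02 to 0.91, and 2 of them rose, *Hsph1* and *Stip1*. These counts were not tested against each other. With 3 and 5 genes, classes A and B are too small to be set apart from the shares over all probe-sets.

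*Dnajc12*, a cochaperone of the aromatic amino acid hydroxylases, among them the hepatic phenylalanine hydroxylase, had the largest difference of the set. Its log2 values were 9.01, 9.84, 9.50 and 9.65 in alcohol fed mice and 8.27, 7.87, 7.80 and 7.86 in control mice. Every alcohol fed mouse lay above every control mouse. WA-811 was the lowest of the alcohol fed mice, WC-820 was the highest of the control mice, and the other control mice were close together. The difference was 1.55 ± 0.18 (SE, n = 4 mice each), or 2.93-fold, with an adjusted p of 0.00144 from limma.

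*Hsph1*, an HSP110 protein and nucleotide exchange factor of HSP70 with a 3-unit element after its start, averaged 8.58 ± 0.25 in alcohol fed mice and 7.68 ± 0.41 in control mice (SD, n = 4 each). The values were 8.23, 8.79, 8.74 and 8.58 in alcohol fed mice, against 8.09, 7.46, 7.94 and 7.22 in control mice. The groups did not overlap, but WA-811 stood only a little above WC-820, and the control mice fell into a higher pair (WC-820 and WC-834) and a lower pair (WC-824 and WC-840). The rise was 0.91 ± 0.20 (SE, 1.87-fold, limma adjusted p = 0.0168). The other measured HSP110 genes, *Hspa4* and *Hspa4l*, had differences of 0.09 and 0.07 (adjusted p = 0.401 and 0.748).

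*Stip1*, the adaptor that joins HSP70 to HSP90, had log2 values of 9.83, 9.69, 9.73 and 9.71 in alcohol fed mice and 9.47, 9.23, 9.49 and 9.18 in control mice. The alcohol fed mice were close together and all above the control mice, in which WC-820 and WC-834 again were the higher pair. The rise was 0.40 ± 0.09 (SE, n = 4 each, 1.32-fold, limma adjusted p = 0.0182). *Bag3*, an exchange factor that also leads clients to autophagy, had 7.23, 7.65, 7.58 and 7.60 in alcohol fed mice and 7.58, 7.26, 7.33 and 7.27 in control mice. Here WA-811 was the lowest mouse of all 8 and WC-820 shared the range of the other alcohol fed mice, so the groups overlapped, with a difference of 0.16 ± 0.11 (SE, adjusted p = 0.386).

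**Figure D2:**
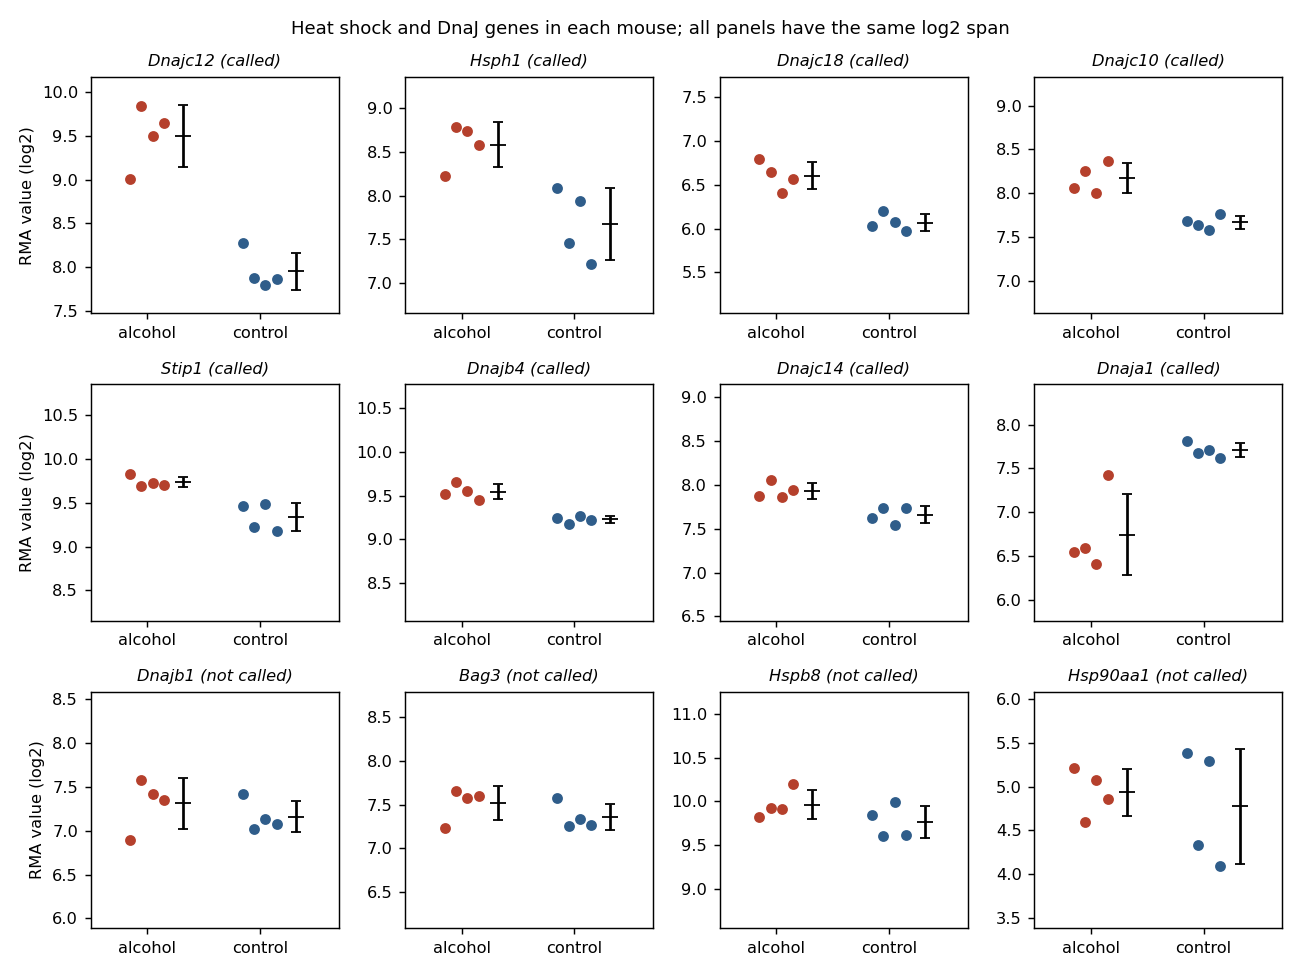
RMA log2 values of 12 genes in each of 4 alcohol fed mice (red, left) and 4 control mice (blue, right), with the mean and SD beside the points (SD over 4 mice). All panels have the same log2 span, and the title gives whether the difference was called at an adjusted p under 0.05. The 8 called genes show no overlap of the groups, while WA-811, the first red point, lies low for Hsph1, Dnajb1 and Bag3.

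The class C genes that rose besides *Dnajc12* were *Dnajc10*, *Dnajc18* and *Dnajc14*. *Dnajc10* (ERdj5), a disulfide reductase of the ER lumen that helps to degrade misfolded proteins, had 8.06, 8.25, 8.0 and 8.37 in alcohol fed mice and 7.68, 7.64, 7.58 and 7.76 in control mice, without overlap. It rose by 0.50 ± 0.10 (SE, n = 4 each, 1.42-fold, limma adjusted p = 0.00938). *Dnajc18*, a J protein of the ER membrane, had 6.79, 6.65, 6.41 and 6.57 in alcohol fed mice and 6.03, 6.20, 6.07 and 5.97 in control mice, and rose by 0.54 ± 0.09 (SE, 1.45-fold, adjusted p = 0.00739). Every alcohol fed mouse was above every control mouse for this gene too. *Dnajc14*, which in human cells is an ER membrane protein that aids the transport of dopamine receptors, had 7.88, 8.06, 7.86 and 7.94 in alcohol fed mice, against 7.62, 7.74, 7.54 and 7.74 in control mice. Its rise was the smallest of the 7, 0.28 ± 0.08 (SE, 1.21-fold, adjusted p = 0.0422). It lost its call in 10 of 17 alternative settings, among them each with 1 control mouse left out.

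Other J proteins of the ER did not pass the test. *Dnajc1*, an ER membrane J protein, had a difference of 0.14 (adjusted p = 0.262), and *Dnajb12*, also of the ER membrane, one of -0.00 (95% interval -0.29 to 0.28). *Dnajb12* was low in WA-833 alone. *Dnajc16*, also an ER J protein, had 0.14 (adjusted p = 0.335).

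The class A and class B genes, most of which deliver clients to HSP70 in the cytosol, moved both ways. *Dnajb4*, a class B HSP40, had 9.52, 9.66, 9.55 and 9.45 in alcohol fed mice and 9.24, 9.18, 9.27 and 9.22 in control mice. The control mice were close together, and the rise was 0.32 ± 0.07 (SE, n = 4 each, 1.24-fold, limma adjusted p = 0.0162). *Dnaja1*, a farnesylated class A HSP40, had 6.54, 6.59, 6.41 and 7.43 in alcohol fed mice, against 7.81, 7.68, 7.71 and 7.62 in control mice. The alcohol fed mice other than WA-836 lay far below the control mice, and WA-836 lay just below them. *Dnaja1* fell by 0.96 ± 0.20 on the log2 scale (SE, 1.95-fold, adjusted p = 0.0124), and without WA-836 it also passed the study's thresholds, at -1.19 (adjusted p = 0.000366).

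*Dnajb1*, the HSP40 that rises with HSP70 in heat shock, had 6.90, 7.58, 7.42 and 7.35 in alcohol fed mice and 7.42, 7.02, 7.13 and 7.08 in control mice. As for *Bag3*, WA-811 was the lowest of all 8 mice and WC-820 the highest control mouse, and the groups overlapped (0.15 ± 0.15, SE, adjusted p = 0.536). The difference of *Dnajb1* was 0.29 without WA-811 (adjusted p = 0.133) and 0.06 without WA-817 (adjusted p = 0.836). Other class A and B genes stayed near 0, with -0.07 for *Dnaja2*, 0.05 for the mitochondrial *Dnaja3*, -0.04 for *Dnajb2* and -0.09 for *Dnajb5*.

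The remaining class C genes did not pass the test either. *Dnajc15*, a J protein of the mitochondrial inner membrane, came closest among those that were lower, with a difference of -0.26 (95% interval -0.52 to -0.01, adjusted p = 0.146) and 3 of 4 alcohol fed mice below all control mice. *Dnajc11*, of the mitochondrial membrane, and *Dnajc22* each had -0.19, *Dnajc30*, of the mitochondrion, had -0.11, and *Dnajc7*, a cochaperone that binds both HSP70 and HSP90, and *Dnajc4* each had -0.14. *Dnajc9*, a histone chaperone, had -0.11, *Dnajc28* had -0.10, *Dnajc24*, which acts in the synthesis of diphthamide, had 0.03, and *Dnajc2*, a J protein bound to ribosomes, had 0.12. *Dnajc5*, the cysteine string protein, had 0.10 (adjusted p = 0.373), although its values of 8.08, 8.17, 8.14 and 8.09 in alcohol fed mice all exceeded the 8.06, 8.07, 7.90 and 8.06 in control mice. With *Dnajc5*, groups did not overlap for 8 genes that were higher and 1 that was lower, against 15.5% and 8.14% of all probe-sets.

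**Figure D3:**
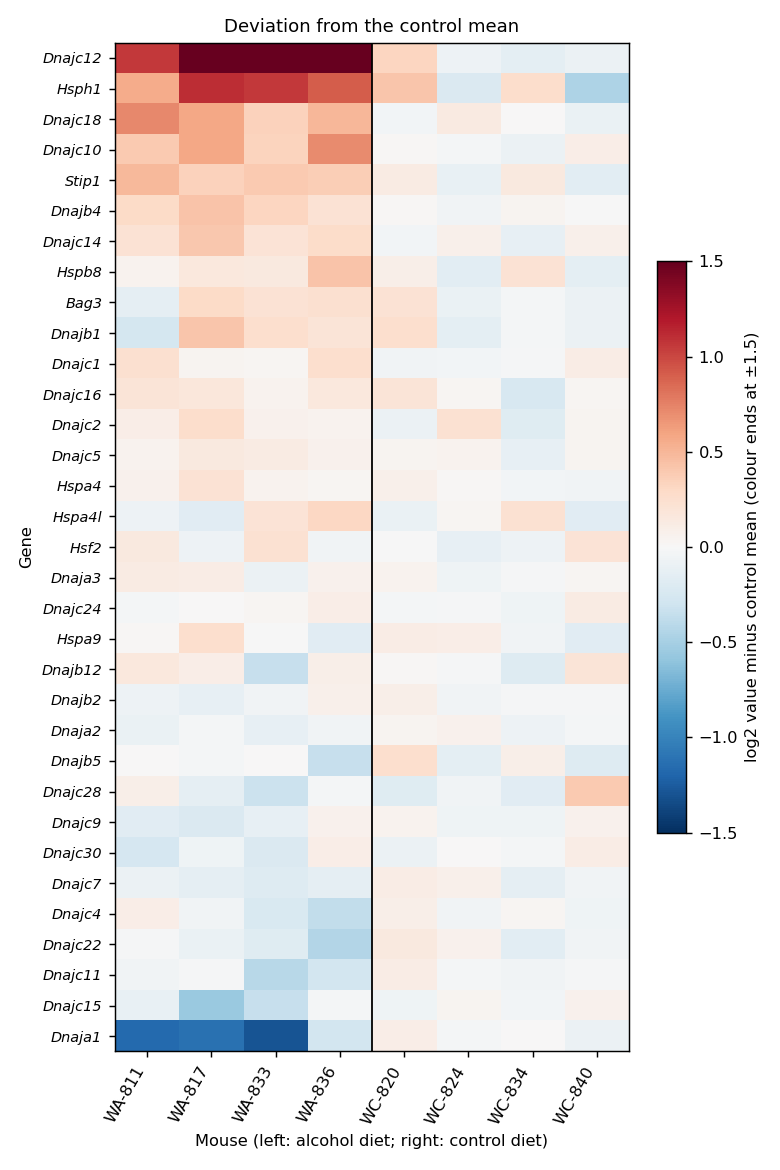
Log2 value minus the mean of the control mice for the 33 measured genes (rows, ordered by the difference between the diets) in each mouse (columns, alcohol diet left of the line, control diet right), with the colour scale ending at 1.5 on either side. The top 7 rows are red in all alcohol fed mice and the bottom row, Dnaja1, is blue in them, palest in WA-836.

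The heat shock factors and the main stress-induced chaperones were only in part readable. *Hsf2*, a second heat shock factor, had a difference of 0.06 ± 0.10 (SE, 95% interval -0.17 to 0.29, adjusted p = 0.726). *Hspb8*, a small heat shock protein and partner of BAG3, had 9.82, 9.92, 9.91 and 10.20 in alcohol fed mice and 9.85, 9.61, 9.99 and 9.62 in control mice, which overlapped (0.20 ± 0.12, SE, adjusted p = 0.278). *Hspa9*, the HSP70 of the mitochondrion, had 0.02 ± 0.11 (SE, 95% interval -0.22 to 0.26, adjusted p = 0.903), a value whose sign turned with the scaling of the arrays. The genes *Hsf1*, *Hspa8*, *Hspa1b*, *Hsp90ab1*, *Hspb1*, *Hspd1*, *Hspe1*, *Dnajb6*, *Dnajb14*, *Dnajc13* and *Dnajc21* had no probe-set named for them in the annotation used here and were not analysed. *Dnajc8* and *Dnajc25* were annotated only together with another gene.

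The 14 genes below the filter were read from the fit on all 23332 probe-sets, in which 0 of them passed (1 at an unadjusted p under 0.05, *Hspa2*). *Hsp90aa1*, the inducible cytosolic HSP90, had 5.21, 4.60, 5.07 and 4.86 in alcohol fed mice and 5.38, 4.33, 5.29 and 4.09 in control mice. WC-820 and WC-834 were the highest of all 8 mice and WC-824 and WC-840 the lowest, so the spread among control mice was wider than the difference between the diets (0.16 ± 0.31, SE, adjusted p = 0.856). *Hspa1a*, the inducible HSP70, had a mean of 3.74 ± 0.08 in alcohol fed mice and 3.66 ± 0.33 in control mice (SD, n = 4 each), with a difference of 0.08 (95% interval -0.29 to 0.44). *Hspa2*, an HSP70 best known from the testis, had 5.48, 5.38, 5.26 and 5.03 in alcohol fed mice and 4.97, 5.13, 4.96 and 4.54 in control mice, with 0.39 ± 0.15 (SE, adjusted p = 0.221). The others, *Dnaja4*, *Dnajb3*, *Dnajb7*, *Dnajb8*, *Dnajb13*, *Dnajc5b*, *Dnajc5g*, *Dnajc6*, *Dnajc17*, *Dnajc19* and *Dnajc27*, had differences from -0.22 to 0.23, and values this low on RMA arrays can understate a change.

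Of the probe-sets that carry a gene of the set together with another gene, that of *Dnajc8* and *Ptafr* was lower, with 7.42, 7.65, 6.83 and 7.45 in alcohol fed mice and 8.06, 8.33, 7.85 and 8.15 in control mice. The groups did not overlap (-0.76 ± 0.17, SE, adjusted p = 0.0186), and which of the 2 genes gave the signal was not resolved. The probe-set of *Gng10* and *Dnajc25* had -0.30 (adjusted p = 0.108), and those of *Hspa1l* with *Hspa1a* and of *Qrfprl* with *Dnajc2*, both below the filter, had -0.19 and -0.12.

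Control mice differed among themselves in a way that several of these genes shared. WC-820 and WC-834 were the 2 highest control mice for *Hsph1*, *Stip1*, *Hspb8* and *Hsp90aa1*, and also for the HSP90 partners *Fkbp4* (9.69 and 9.72, against 9.53 and 9.62 in WC-824 and WC-840) and *Chordc1* (6.85 and 6.90, against 6.53 and 6.59). The order was not particular to heat shock genes. Most ER chaperones outside the rule had it, such as *Hspa5* (11.47 and 11.35, against 11.20 and 10.77) and *Hyou1* (9.74 and 9.77, against 9.43 and 9.07). *Sil1* did not (8.92 and 8.82, against 8.84 and 8.74). The hepatocyte marker *Hnf4a* had it too (11.02 and 10.80, against 10.68 and 10.59). These genes were picked after their values were seen, and the pattern was not tested. Without WC-824, 3 genes of the set rose instead of 7, and without WC-840, 5 did. Over all probe-sets the higher count was 595 and 640 in these fits, against 1059 with all 8 mice. It was also low, at 614, without WC-834 of the higher pair, and 695 without WA-817, but 1086 without WA-833. What part the smaller number of mice had in these losses was not tested. Without WC-824 *Hsph1*, *Stip1*, *Dnajb4* and *Dnajc14* missed the threshold at differences of 0.83, 0.36, 0.30 and 0.30 (adjusted p = 0.0504, 0.0579, 0.0553 and 0.0703 from limma), against 0.91, 0.40, 0.32 and 0.28 with all mice, and *Dnajc12*, *Dnajc18* and *Dnajc10* kept their calls. The same 3 genes were left when no filter was applied, and *Dnaja1* then missed the threshold at an adjusted p of 0.0517.

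Partners of these chaperones outside the rule were described from lists, whose counts stand against 10.2% higher and 5.98% lower, and whose medians stand against 0.05, over all probe-sets tested. Among 14 measured HSP90 partners 2 rose (14.3%) and 1 fell (7.14%), shares close to those over all probe-sets, with a median difference of 0.10. The immunophilin *Fkbp5* had 8.42, 8.63, 7.91 and 9.56 in alcohol fed mice and 7.53, 7.44, 7.87 and 7.36 in control mice, which came within a small step of each other at WA-833 and WC-834 (1.08 ± 0.30, SE, adjusted p = 0.0376). Its relative *Fkbp4* rose by 0.32 (adjusted p = 0.0244). *Ppid*, an immunophilin of the cyclophilin family, had 5.88, 6.25, 6.59 and 6.96 in alcohol fed mice and 7.46, 7.52, 7.44 and 7.51 in control mice, and fell by 1.07 ± 0.20 on the log2 scale (SE, 2.09-fold, adjusted p = 0.00837). As for *Dnaja1*, the alcohol fed mice varied widely for *Ppid*, and WA-836 was nearest to the closely grouped control mice.

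Among 8 measured HSP70 partners (median 0.04) 2 rose, *Hspa13*, an HSP70-like protein of microsomes (0.86 ± 0.13, SE, 1.81-fold, adjusted p = 0.00404), and *Stub1*, the ubiquitin ligase CHIP that marks HSP70 clients for degradation (0.34, adjusted p = 0.0223). *Hspa13* had 9.26, 9.33, 9.66 and 9.27 in alcohol fed mice and 8.73, 8.55, 8.58 and 8.24 in control mice, without overlap. The 2 measured small heat shock proteins outside the rule had differences of -0.20 and -0.14 and did not pass the test (1 was lower at an unadjusted p under 0.05). In the cytosolic chaperonin TRiC and prefoldin, which fold actin and tubulin, 1 of 10 rose (*Cct2*, 0.24, adjusted p = 0.0335) and 1 fell (*Pfdn2*, -0.32, adjusted p = 0.0427). Their median difference was -0.11, and at an unadjusted p under 0.05 from limma 2 were higher and 3 lower.

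Of 7 mitochondrial chaperones outside the rule 1 rose, *Clpb* (0.49, adjusted p = 0.00835), and 2 fell, the unfoldase subunit *Clpx* (-0.38, adjusted p = 0.0454) and *Grpel1*, the exchange factor of *Hspa9* (-0.30, adjusted p = 0.0448). That is 14.3% higher and 28.6% lower, against 10.2% and 5.98% of all probe-sets, with a median difference of -0.11. Of 12 ER chaperones outside the rule 3 rose (25% against 10.2% of all probe-sets) and 0 fell by limma (4 higher and 0 lower at an unadjusted p under 0.05), with a median difference of 0.26. They were *Hyou1*, an HSP110-like exchange factor of the ER (0.60 ± 0.17, SE, 1.51-fold, adjusted p = 0.0471), *Sil1*, an exchange factor of the ER HSP70 BiP (0.33, adjusted p = 0.0137), and *Canx*, the lectin chaperone calnexin (0.30, adjusted p = 0.0413).

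**Figure D4:**
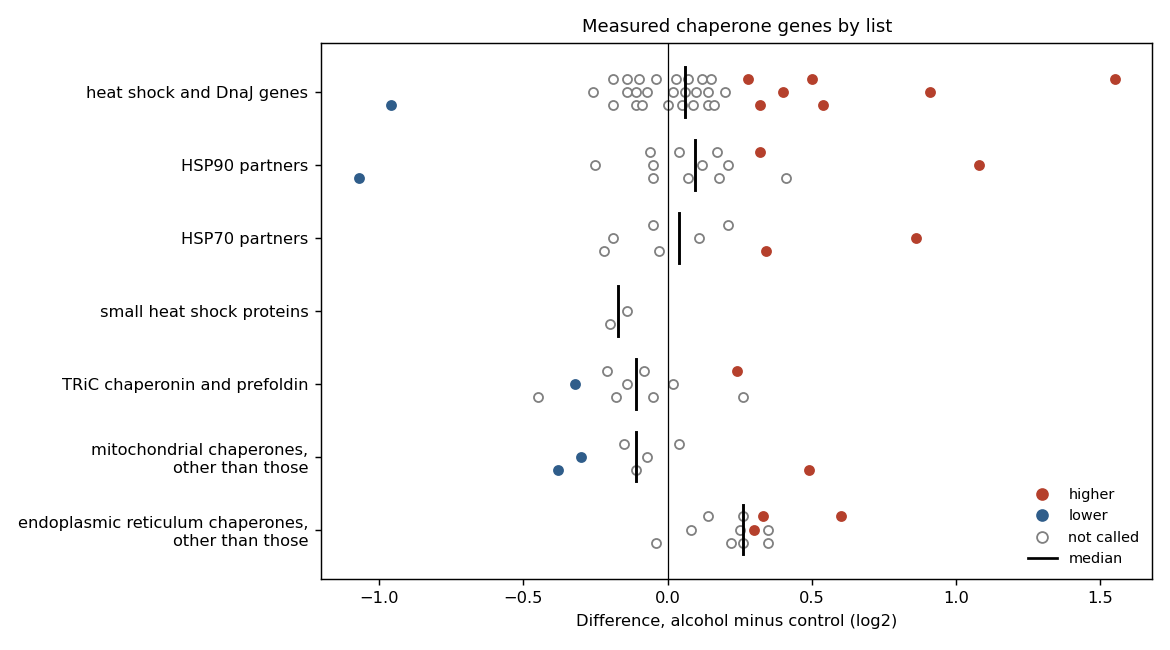
Difference in log2 value, alcohol minus control, of each measured gene (points) in the heat shock and DnaJ set and in 6 lists of other chaperones (rows), with the median of each row (black bar). Filled points passed an adjusted p under 0.05. The medians run from -0.17 for 2 small heat shock proteins to 0.26 for 12 ER chaperones, and Dnaja1 (-0.96) and Ppid (-1.07) stand apart on the left.

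Of 20 textbook targets of HSF1 listed, 13 of which belong to the set, 9 were measured, and 3 rose (*Hsph1*, *Stip1* and *Fkbp4*) while 1 fell (*Dnaja1*), or 33.3% and 11.1%, against 10.2% and 5.98% of all probe-sets. The median difference was 0.17, against 0.05 over all probe-sets. The difference was above 0 for 8 of the 9 and below 0 for *Dnaja1*, while it was above 0 for 6253 of all 10430 probe-sets tested. At an unadjusted p under 0.05 from limma, 5 of the 9 were higher and 1 was lower. The share of all probe-sets at that unadjusted threshold was not counted, so these 2 counts have no background beside them. *Dnajb1*, *Bag3* and *Chordc1* (0.41, adjusted p = 0.119) were among the 5 that did not pass the test. *Hspa1a* and *Hsp90aa1* lay below the filter, with differences of 0.08 and 0.16 that did not pass in the fit on all probe-sets. The other targets listed, among them *Hspa8*, *Hspa1b*, *Hsp90ab1* and *Hspb1*, had no probe-set of their own. *Fkbp4*, *Chordc1*, *Ahsa1* and *Cacybp* were also counted among the HSP90 partners above.

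Over all 23332 probe-sets the array medians were 5.10 to 5.14 in alcohol fed mice and 5.04 to 5.08 in control mice, and r between arrays, over probe-sets, was 0.983 to 0.984 among alcohol fed mice, 0.984 to 0.987 among control mice and 0.977 to 0.982 across the diets. By this measure no array stood apart. Of the calls over all probe-sets 62.9% were higher with the values as deposited, 51.8% after a renewed quantile normalization, and 45.1% when array medians were set equal. Hepatocyte markers (0 of 6 called by limma, 1 at an unadjusted p under 0.05, summed log2 level 15.57 to 15.66 in both groups) and Kupffer cell markers (0 of 10 called, 1 at an unadjusted p under 0.05) did not pass the test. The hepatocyte sum rests mostly on *Alb*, *Apoa2* and *Ttr*, with group means of 13.39 to 13.59, and says little about markers of lower signal. The hepatocyte marker under 0.05 was *Hnf4a* (0.34, limma adjusted p = 0.0702). Of 7 sinusoidal endothelial markers 2 rose, *Lyve1* (1.23) and *Clec4g* (0.47), and their summed log2 level was 11.93 to 12.21 in alcohol fed mice and 11.62 to 11.76 in control mice. Of 6 stellate cell markers *Lrat* rose (0.54) and *Reln* fell (-0.34), or 16.7% each, against 10.2% and 5.98% of all probe-sets. The 1 cholangiocyte marker measured did not pass. Of 5 erythroid markers listed 2 had a probe-set of their own and 1 was measured, *Alas2*, which fell (-2.07). The summed erythroid level was 7.11 to 8.42 in alcohol fed mice and 9.65 to 9.86 in control mice. This sum is nearly that of *Alas2* alone, since *Slc4a1*, below the filter, had means of 4.32 and 4.68. Markers of T and NK cells, B cells, neutrophils and muscle all lay below the filter. In whole liver, fewer cells of a type and less RNA per cell cannot be told apart, and the part of these cell types in the differences above was not tested.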

How the data were processed

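Liver RNA of 4 alcohol fed and 4 control mice was analysed, 1 array per mouse. The authors deposited log2 values made by RMA in Affymetrix Expression Console (version and genome build not given in the sources used here), with 23332 probe-sets on each of 8 arrays. RMA normalizes by quantiles, which can remove a real shift shared by most genes. A small shift between the diets was still present in the deposited values. Their array medians were 5.10 to 5.14 in alcohol fed mice and 5.04 to 5.08 in control mice. The number of mice limits the precision.

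Symbols came from the array annotation. A gene was read at its probe-set of highest mean, and one with several symbols was not taken for any gene. The 10430 probe-sets of highest fourth-highest value were kept (last one 5.56), the number given in the methods. Differences were fitted with limma 3.58.1 in R 4.3.3 (6 residual degrees of freedom, Benjamini-Hochberg over all kept probe-sets), which was also tested on simulated data. For genes below the filter, a fit on all probe-sets was used. All genes at an adjusted p under 0.05 and 17 fixed heat shock genes were to be named with values, the others by range, and up to 4 called genes of each other list. The members, lists and tests were chosen with earlier results of these data known. Promoters are from RefSeq. *Dnajc12* and *Dnajc18* were not in that table. The alternatives were no filter, other fits and scalings, the probe-sets of a gene averaged, shared probe-sets counted and each mouse left out.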

Additional observations from a re-analysis of the deposited data

Results flagged for a closer look

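In 35 genes of the set, 70 groups of 4 mice were searched for a mouse that stood apart from the other 3 by Dixon's test, and 7 were found. Chance alone marks about 1 group in 20. Among alcohol fed mice, *Bag3* was low in WA-811 (7.23, the others 7.58 to 7.65), *Dnajb12* was low in WA-833 (7.47, the others 7.90 to 7.97), *Dnajb5* was low in WA-836 (5.57, the others 5.88 to 5.91) and *Hspa4* was high in WA-817 (9.04, the others 8.86 to 8.89). Among control mice, *Dnajc12* was high in WC-820 (8.27, the others 7.80 to 7.87), *Dnajc11* was high in WC-820 (8.37, the others 8.21 to 8.24) and *Dnajc5* was low in WC-834 (7.90, the others 8.06 to 8.07). The rise of *Dnajc12* was called in all 17 alternatives, with differences of 1.44 to 1.72.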

How the results depend on the processing

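Among the 8 genes called, *Dnajc10*, *Dnajc12* and *Dnajc18* kept their calls in all 17 alternatives, and no called gene changed its direction in any. *Dnajc14* lost its call in 10, *Hsph1* and *Stip1* each in 3, and *Dnajb4* and *Dnaja1* each in 2, at adjusted p values of up to 0.121, 0.065, 0.0665, 0.0596 and 0.0529. None of 7 named genes that were not called gained a call, and among them *Hspa9* changed sign in 4 alternatives and *Hsp90aa1* and *Hspa1a* in 1 each. Without the filter, 3 genes of the set were higher and 0 lower, with 488 and 285 of all probe-sets, since the adjustment then ran over 23332 probe-sets. Without moderation of the variance 0 were lower (382 of all probe-sets) and 0 passed the study's thresholds. Counting shared probe-sets gave 2 lower. The median difference of the set was 0.02 after quantile normalization and 0.00 after median centring, scalings that moved the median of all probe-sets to 0.01 and -0.01. With each mouse left out in turn 3 to 7 genes of the set were higher and 1 to 1 lower, 1 to 2 passed the study's thresholds, the median was 0.04 to 0.09, and 595 to 1086 probe-sets were higher and 362 to 557 lower in all. The lowest count of the set, 3, came without WC-824. *Stip1* lost its call without WC-840 too. The count of all higher probe-sets was 695, 595, 614 and 640 without WA-817, WC-824, WC-834 and WC-840, and that of all lower ones was 372 and 362 without WC-824 and WC-840. No paired analysis was possible because the mouse numbers of the 2 groups are not shared and the labels do not say which mice were pair-fed to each other. The deposited values come without a detection call, so whether genes near background were detected cannot be read from them.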
